A study of Mus musculus with 9 samples.

Results

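The miR-17-92 cluster is a group of microRNAs (miRNAs) cut from a shared primary transcript, and its mature products were followed here in mouse liver during fibrosis and after withdrawal of the injury. The members were the 7 rows of the deposited miRNA table that carry the names mmu-miR-17-5p, mmu-miR-17-3p, mmu-miR-18a-5p, mmu-miR-19a-3p, mmu-miR-19b-3p, mmu-miR-20a-5p and mmu-miR-92a-3p, out of 1140 rows in all. They were chosen by name and not by any measured value, but with earlier results of these data known. All 7 had counts in every library.

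Small RNA was sequenced from whole liver of male C57BL/6 mice that were 8 weeks old at the start. The control group (n = 3) was injected intraperitoneally with saline for 8 weeks, the TAA group (n = 3) with thioacetamide (TAA), a hepatotoxin that produces fibrosis, for 8 weeks, and the recovery group (n = 3) with TAA for 8 weeks before 8 weeks without treatment. The recovery mice were therefore older at sampling than both other groups, so recovery and elapsed time cannot be told apart. All mice were of the same strain and sex, the labels name no genetic alteration, and each library came from a different mouse. The tests therefore set differences between groups against the spread between mice.

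The primary transcript of the cluster is activated by the transcription factor MYC in dividing cells, and the cluster is known as an oncogenic miRNA locus that is often raised in liver cancer. A mature miRNA recognises its target mRNAs mainly through its seed, the short stretch near its 5′ end, so members with the same seed repress overlapping sets of mRNAs. miR-17-5p and miR-20a-5p are known for targets among cell cycle regulators and the type II TGF-β receptor, miR-18a for the matricellular factor Ctgf and members of the SMAD pathway, and miR-92a for integrins of endothelial cells.

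In the genome build GRCm38 the 6 hairpins of the cluster lay on the plus strand of chromosome 14 between 115043671 and 115044506, a span of 836 bases, inside an exon of the long non-coding RNA gene Mir17hg (115042879 to 115046727). Their order was Mir17, Mir18, Mir19a, Mir20a, Mir19b-1 and Mir92-1. Mature sequences of all 7 members were found in RefSeq (GRCm38.p6). They are shown 5′ to 3′, with the seed (bases 2 to 8) in capitals, because the seed sets the groups that are compared:
mmu-miR-17-5p: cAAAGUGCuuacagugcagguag
mmu-miR-20a-5p: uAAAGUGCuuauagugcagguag
mmu-miR-18a-5p: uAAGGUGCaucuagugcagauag
mmu-miR-19a-3p: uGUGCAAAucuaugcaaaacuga
mmu-miR-19b-3p: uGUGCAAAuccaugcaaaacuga
mmu-miR-92a-3p: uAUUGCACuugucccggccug
mmu-miR-17-3p: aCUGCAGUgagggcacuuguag

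Counted from 1 at the 5′ end, miR-17-5p and miR-20a-5p differed at 2 of 23 positions (C1U and C12U), and miR-19a-3p and miR-19b-3p at 1 of 23 (U11C), in each case outside the seed. miR-18a-5p differed from miR-17-5p at 6 positions, of which A4G lay in the seed. These sequences gave 4 seed groups, called 17/20a, 18a, 19a/19b and 92a below, while miR-17-3p, the opposite arm of the miR-17 hairpin, had a seed of its own and belonged to none of them. Copies of miR-19b-3p and miR-92a-3p with the same mature sequence are also encoded on chromosome X (Mir19b-2 and Mir92-2, in the miR-106a-363 cluster), so the counts of these members cannot be assigned to the chromosome 14 locus alone. The row of miR-106a-5p, which differs from miR-17-5p only by U10A, held at most 2 counts in any library.

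The libraries held between 9071847 and 12983378 counts, and the 7 members together took 0.0361% to 0.0377% of them in control, 0.0589% to 0.106% in TAA and 0.0336% to 0.0385% in recovery. The value deposited as TPM was the count relative to the total of its library, scaled to the same total in every library, with no term for length. In every library miR-92a-3p was the most abundant member and miR-20a-5p the next. miR-19b-3p exceeded miR-17-5p in all control and recovery libraries, and this order was turned round in all 3 TAA libraries. miR-17-3p, miR-18a-5p and miR-19a-3p were each below 10 TPM in every library except for miR-18a-5p in TAA replicate 1.

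**Figure D1:**
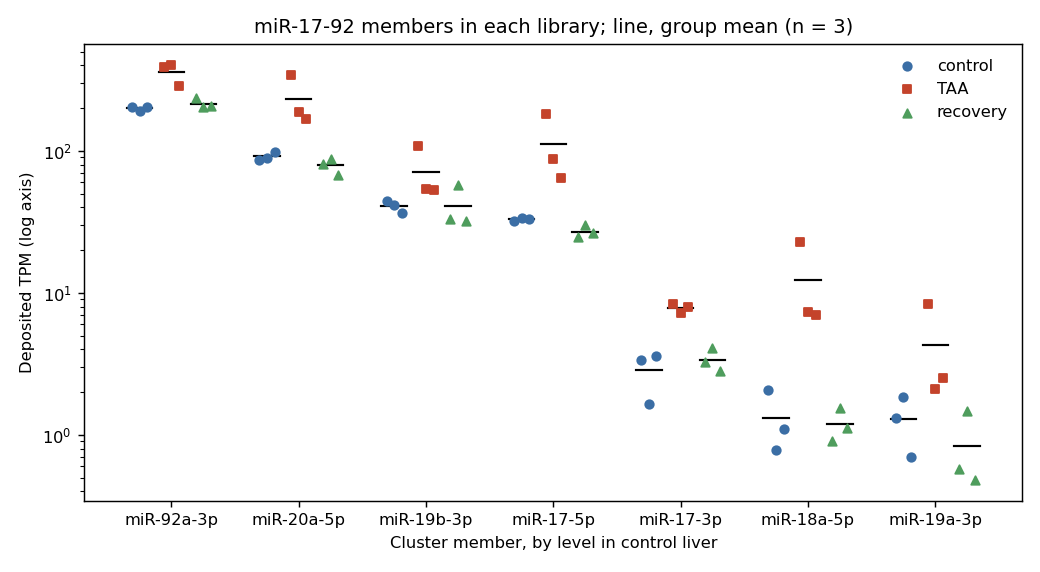
Deposited TPM of the 7 members in each of the 9 libraries (vertical log axis), with circles for control, squares for TAA, triangles for recovery and a line at each group mean (n = 3). The TAA libraries of miR-18a-5p lay between 6.98 and 22.9 TPM, above all control libraries (0.779 to 2.08 TPM), and TAA replicate 1 (the leftmost square) was the highest TAA library for 6 of the 7 members.

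miR-18a-5p, the seed group with the lowest counts, showed the largest fold difference of the members between TAA and control. It had 27, 8 and 11 counts in the control libraries, 259, 67 and 64 in the TAA libraries and 11, 19 and 14 in the recovery libraries, replicates 1 to 3 in each case. In TPM these were 2.08, 0.779 and 1.11 in control, 22.9, 7.39 and 6.98 in TAA and 0.901, 1.55 and 1.12 in recovery. The TAA libraries overlapped with neither of the other groups, whereas control and recovery overlapped.

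In the 17/20a seed group, miR-17-5p had 32.2, 33.5 and 33.4 TPM in control, 182, 88.1 and 64.3 in TAA and 24.7, 30.2 and 26.2 in recovery. TAA was above control, and recovery was below control in every library. miR-20a-5p had 86.1, 89.7 and 98.4 TPM in control, 339.7, 188 and 169 in TAA and 81.2, 88.3 and 68.2 in recovery. For this miRNA TAA stood above both other groups, which overlapped.

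In the 19a/19b group, miR-19b-3p had 44.4, 41.9 and 36.7 TPM in control, 108, 54.2 and 52.9 in TAA and 33.2, 57.3 and 31.9 in recovery. Recovery replicate 2 reached into the range of TAA. miR-19a-3p was rare, with 17, 19 and 7 counts in control, 94, 19 and 23 in TAA and 7, 18 and 6 in recovery, and only TAA replicate 1 was far from the other 8 libraries in counts. miR-92a-3p had 202, 192 and 203 TPM in control, 389, 404 and 285 in TAA and 234, 203 and 205 in recovery, and its TAA values overlapped with neither other group. The opposite arm miR-17-3p had 3.39, 1.66 and 3.62 TPM in control, 8.30, 7.28 and 7.96 in TAA and 3.28, 4.07 and 2.81 in recovery.

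On the TPM scale all 7 members were thus higher in every TAA library than in any control library, but 73.3% of the 420 rows tested were too. The scale of the libraries decides how this reads. TMM factors, which set the bulk of the miRNAs level between libraries, were 0.738 to 0.792 in control, 1.43 to 1.63 in TAA and 0.766 to 0.887 in recovery. The median log2 fold change of all tested rows in TAA vs control was 0.11 after TMM and 1.23 on library totals. TMM is the main scale below, and calls and main fold changes are also given on library totals. In bulk liver, fewer cells of a type and less RNA per cell cannot be told apart.

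In TAA vs control, which asks how the cluster stood in the fibrotic liver, 1 of 7 members passed the test after TMM (at least 2-fold at an FDR below 0.05, edgeR quasi-likelihood test with Benjamini-Hochberg adjustment), against 25% of all tested rows called higher. This was miR-18a-5p, with 1.71 ± 0.81 CPM in control (counts relative to the TMM-scaled library total, on the scale of TPM) and 8.26 ± 6.68 in TAA (SD, n = 3). Its log2 fold change was 2.11 ± 0.61 (SE, edgeR FDR = 0.0216). The call was lost without control replicate 2 (edgeR FDR = 0.0690) and without control replicate 3 (edgeR FDR = 0.0772), with log2 fold changes of 1.86 and 1.99. The other 6 members did not pass. Their log2 fold changes ran from -0.31 ± 0.31 for miR-19b-3p and -0.26 ± 0.17 for miR-92a-3p to 0.65 ± 0.38 for miR-17-5p, with miR-20a-5p at 0.24 ± 0.28, miR-17-3p at 0.33 ± 0.31 and miR-19a-3p at 0.64 ± 0.65. The median over the 7 members was 0.33, beside 0.11 over all 420 rows.

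On library totals 5 of 7 members passed as higher in TAA, against 57.4% of all rows, and the median over the members was 1.44 beside 1.23 over all rows. Those 5 were miR-18a-5p (3.20 ± 0.61), miR-17-5p (1.76 ± 0.37), miR-19a-3p (1.74 ± 0.63), miR-17-3p (1.44 ± 0.32) and miR-20a-5p (1.35 ± 0.27). miR-19b-3p (0.80 ± 0.29) and miR-92a-3p (0.85 ± 0.16), the members that chromosome X also encodes, had an FDR below 0.05 (0.0378 and 0.00224, edgeR) but less than the 2-fold change. Their sign after TMM was the opposite, so no direction is given for them.

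Summed by seed, 1 of 4 groups passed after TMM, again 18a, against 25.1% of rows in that fit. The 17/20a group had 163.6 ± 12.9 CPM in control and 226 ± 121 in TAA (log2 fold change 0.36 ± 0.31, edgeR FDR = 0.355). The 19a/19b group had 55.5 ± 5.24 CPM in control and 49.8 ± 26.9 in TAA (log2 fold change -0.26 ± 0.32, edgeR FDR = 0.502). On library totals 18a and 17/20a passed, 2 of 4 groups against 57.2% of rows, with 17/20a at 1.47 ± 0.30 and 19a/19b at 0.84 ± 0.30.

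**Figure D2:**
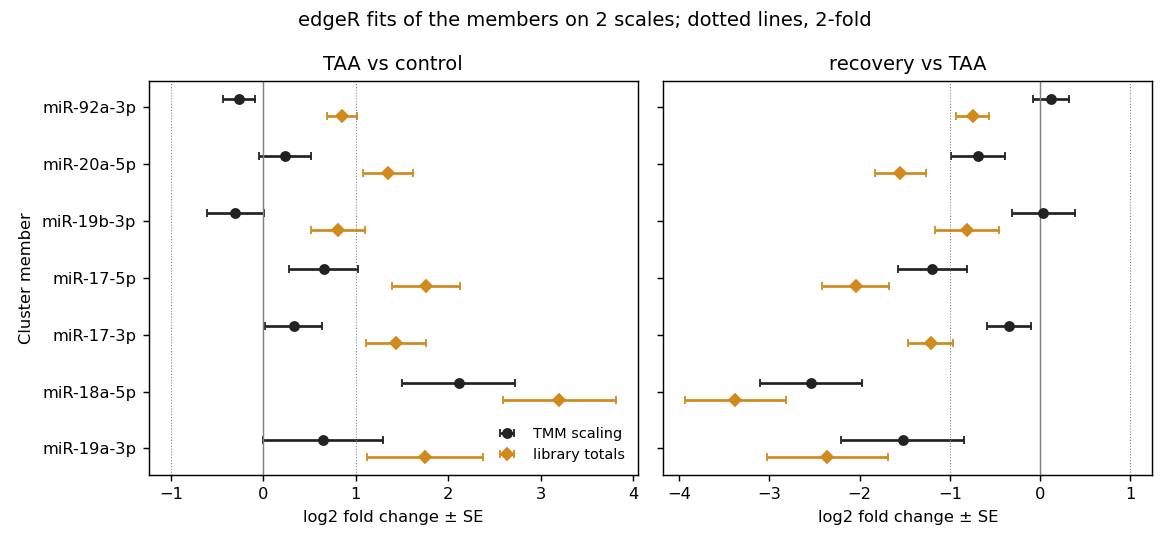
log2 fold changes ± SE (horizontal axis) of the 7 members from edgeR in TAA vs control (left) and recovery vs TAA (right), with circles for TMM scaling, diamonds for library totals, and dotted lines at a 2-fold change. The scale moved every member by about the same amount, and miR-18a-5p was farthest from 0 in both comparisons, at 2.11 and -2.54 after TMM.

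In recovery vs TAA, which follows the cluster after withdrawal, 2 of 7 members passed as lower after TMM, against 14.5% of the 440 rows tested. miR-18a-5p fell to 1.40 ± 0.30 CPM (log2 fold change -2.54 ± 0.56, edgeR FDR = 0.00935), and it passed with each of the 6 libraries left out in turn. miR-17-5p went from 73.5 ± 46.9 CPM in TAA to 32.1 ± 2.02 in recovery (log2 fold change -1.19 ± 0.38, edgeR FDR = 0.0399). This second call was lost with the size factors of DESeq2 (edgeR FDR = 0.0533), without TAA replicate 1 (log2 fold change -0.52 ± 0.19, edgeR FDR = 0.0613), and without recovery replicate 1 (edgeR FDR = 0.138), 2 (0.102) or 3 (0.129). The other 5 did not pass. miR-19a-3p stood at -1.52 ± 0.68 and miR-20a-5p at -0.69 ± 0.30, while miR-17-3p (-0.34 ± 0.25), miR-19b-3p (0.04 ± 0.35) and miR-92a-3p (0.12 ± 0.20) were closer to 0. The median over the members was -0.69, beside -0.12 over all rows.

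On library totals 5 of 7 members passed as lower in recovery than in TAA, against 46.1% of rows, and these were miR-18a-5p (-3.38 ± 0.56), miR-19a-3p (-2.36 ± 0.67), miR-17-5p (-2.04 ± 0.37), miR-20a-5p (-1.55 ± 0.28) and miR-17-3p (-1.21 ± 0.25). miR-19b-3p stood at -0.81 ± 0.35 and miR-92a-3p at -0.75 ± 0.18. The median over the members was -1.55, beside -0.98 over all rows. On the TPM scale 6 of 7 members were lower in every recovery library than in any TAA library, all but miR-19b-3p, against 63.6% of rows. By seed, 1 of 4 groups passed after TMM (18a, against 14.4% of rows) and 2 of 4 on library totals (18a and 17/20a, against 45.9%). The 17/20a group had a log2 fold change of -0.84 ± 0.32 after TMM (edgeR FDR = 0.0706) and -1.69 ± 0.31 on library totals. TAA vs control and recovery vs TAA share the TAA libraries, so the values of a member in them are not independent.

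In recovery vs control, which asks whether the liver after withdrawal still differed from the saline liver, 0 of 7 members passed edgeR's test on either scale, against 11.3% of the 391 rows tested after TMM and 12.5% on library totals, in either direction. DESeq2 and limma also called 0. With edgeR after TMM, 2 members had an unadjusted p below 0.05. These were miR-17-5p, at -0.47 ± 0.14 on the log2 scale with an FDR of 0.0473, which is below the threshold but short of 2-fold, and miR-20a-5p, at -0.39 ± 0.14 with an FDR of 0.117 (edgeR). On library totals they stood at -0.29 ± 0.16 and -0.21 ± 0.14. On the TPM scale miR-17-5p was the 1 member of 7 whose groups did not overlap, against 27.9% of rows in either direction.

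TAA replicate 1 stood apart for the cluster. After TMM it held the highest value of all 3 TAA libraries for 7 of 7 members. It was at least 2-fold above the mean of the other TAA libraries, on the log2(CPM + 1) scale, in 10 of the 420 rows tested (2.38%), and 5 of these 10 rows were members. miR-18a-5p was 3.62 times the mean of the other TAA libraries in CPM, miR-19a-3p 4.10 times, miR-17-5p 2.72 times, miR-19b-3p 2.28 times and miR-20a-5p 2.16 times, while miR-92a-3p was 1.28 times and miR-17-3p 1.24 times. Rows outside the cluster on this list included mmu-miR-363-3p, mmu-miR-92b-3p and mmu-miR-32-5p, which carry the 92a seed, together with mmu-miR-1983 and mmu-miR-125b-1-3p. Of the marker sums described at the end, 2 of 6 were also highest in TAA replicate 1 after TMM, the biliary one (5534 CPM, beside 3331 and 3696 in the other TAA libraries) and the hepatocyte one (113857 CPM, beside 107614 and 107346). Within the biliary list this held for mmu-miR-200a-3p, mmu-miR-200b-3p and mmu-miR-429-3p, while mmu-miR-200c-3p (82.9 TPM, beside 123 and 177) and mmu-miR-141-3p (9.28 TPM, beside 12.7 and 20.9) were lowest there. Within the hepatocyte list mmu-miR-194-5p was lowest in TAA replicate 1 (2638 TPM, beside 3492 and 3428), and most of that sum was mmu-miR-122-5p. The leukocyte, mesenchymal, endothelial and red cell sums lay between those of the other TAA libraries. The part of these cells in the values of this library was not tested.

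Without TAA replicate 1, miR-18a-5p was again the 1 member of 7 that passed after TMM in TAA vs control (log2 fold change 1.28 ± 0.40, edgeR FDR = 0.0286, against 26.1% of rows) and in recovery vs TAA (-1.62 ± 0.31, edgeR FDR = 0.00398, against 16.2%). In TAA vs control the log2 fold change of miR-17-5p moved from 0.65 to 0.08 and that of miR-20a-5p from 0.24 to -0.17, and miR-19b-3p stood at -0.75 ± 0.15 with an FDR of 0.00521 (edgeR) but less than a 2-fold change. On library totals without this library 3 of 7 members passed in TAA vs control (miR-17-3p, miR-17-5p and miR-18a-5p, against 58.6% of rows) and 5 of 7 in recovery vs TAA (against 50.3%).

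The seed groups were then compared with each other through the log2 ratio of their summed counts within each library (0.5 added to each sum), which does not depend on the scaling. Over the 3 groups, 5 of the 6 pairs passed an exact permutation test of the sum of squares between groups, which has no direction (adjusted p = 0.0429 for each of the 5, Benjamini-Hochberg over 6 pairs). In TAA 18a gained on every other group, and 17/20a gained on 19a/19b and 92a. The pairs share their seed groups, so they are not independent tests. The mean differences of the pairs had to give 1 common order for that reason. In the 5 pairs no TAA library overlapped with a control or recovery library, but a comparison of 3 against 3 libraries cannot go below p = 0.1 in an exact permutation test.

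The ratio of 18a to 19a/19b was -4.43, -5.72 and -5.02 on the log2 scale in control, -2.34, -2.92 and -2.98 in TAA and -5.17, -5.21 and -4.80 in recovery. TAA was thus 4.97-fold above control, and recovery lay in the range of control. The ratio of 18a to 92a was 4.70-fold higher in TAA than in control, with means of -5.06 ± 0.87 and -7.30 ± 0.65 (log2, SD, n = 3), and recovery was at -7.47 ± 0.48. The ratio of 17/20a to 18a was 6.62 ± 0.73 in control, 4.92 ± 0.37 in TAA and 6.46 ± 0.31 in recovery.

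Between the abundant groups the differences were smaller. The log2 ratio of 17/20a to 19a/19b was 1.37, 1.49 and 1.82 in control, 2.17, 2.29 and 2.07 in TAA and 1.65, 1.01 and 1.54 in recovery, a 1.54-fold difference between TAA and control. The log2 ratio of 17/20a to 92a was -0.78, -0.64 and -0.62 in control, 0.42, -0.55 and -0.29 in TAA and -1.14, -0.77 and -1.12 in recovery, a 1.45-fold difference between TAA and control, and TAA replicate 1 was the only library in which 17/20a outnumbered 92a. The ratio of 19a/19b to 92a gave no such pattern, at -2.24 ± 0.18 in control, -2.32 ± 0.55 in TAA and -2.41 ± 0.55 in recovery (exact permutation p = 0.9 over the 3 groups, n = 3 each).

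Before adjustment the exact permutation p of the 5 pairs was 0.00714 for 17/20a to 92a, 0.0214 for 18a to 92a, 0.025 for 17/20a to 19a/19b, 0.0286 for 17/20a to 18a and 0.0357 for 18a to 19a/19b, where the smallest possible over the 1680 assignments of the 9 libraries is 0.00357. The calls changed when 7 of the 9 libraries were left out in turn. The number of pairs with an adjusted p below 0.05 was 5 without control replicate 1 or recovery replicate 2, 0 without control replicate 2 or 3, TAA replicate 1, or recovery replicate 1 or 3, and 1 without TAA replicate 2 or 3. Without TAA replicate 1 the adjusted p of those 5 pairs was 0.09 in the exact permutation test, and the log2 difference of TAA from control was 2.11 for 18a to 19a/19b, 1.74 for 18a to 92a, -1.49 for 17/20a to 18a, 0.62 for 17/20a to 19a/19b and 0.26 for 17/20a to 92a. When miR-19b-3p and miR-92a-3p were left out because chromosome X also encodes them, 0 of the 3 remaining pairs passed. The pair 17/20a to 18a holds neither of these members, so its log2 difference (-1.69) and unadjusted exact permutation p (0.0286) were as before, and its adjusted p became 0.0857 through the adjustment over 3 pairs. The log2 ratio of 18a to 19a alone differed by 1.54 between TAA and control (adjusted p = 0.171, exact permutation test), and that of 17/20a to 19a alone differed by -0.15 between TAA and control. miR-19b-3p held most of the 19a/19b counts, and miR-19a-3p had only 6 to 94 counts a library. Leaving out miR-19b-3p thus puts a rare row in place of the group. It cannot tell where the gain of 17/20a over 19a/19b arose.

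**Figure D3:**
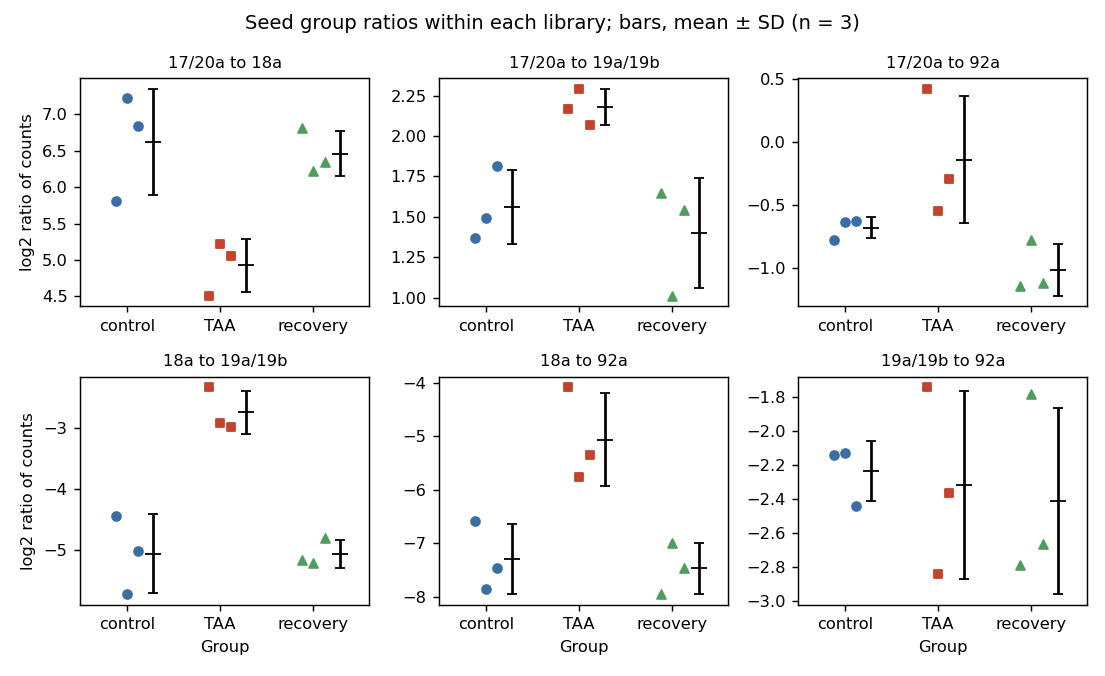
log2 ratio of the summed counts of each pair of seed groups within a library (vertical axes, 1 panel a pair) in the 3 libraries of control (circles), TAA (squares) and recovery (triangles), with bars for mean ± SD. The TAA libraries lay outside the range of both other groups in 5 panels, and only in the panel of 19a/19b to 92a did all 3 groups overlap.

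The make-up of the cluster shows the same counts as shares. miR-92a-3p held 53.8% ± 0.69 of the cluster's counts in control, 46.3% ± 8.71 in TAA and 58.5% ± 5.19 in recovery (SD, n = 3). miR-20a-5p held 24.7% ± 1.48, 28.6% ± 3.54 and 21.6% ± 1.32, and miR-17-5p 8.93% ± 0.32, 13.3% ± 3.42 and 7.39% ± 0.73, in the same order. The share of miR-17-5p ran from 8.65% to 9.28% in control, 10.9% to 17.2% in TAA and 6.54% to 7.82% in recovery, without overlap. Every other member overlapped between some of the groups. The shares within a library depend on each other, and how often other rows would separate in this way was not tested. miR-19b-3p held 11.1% ± 1.19, 8.79% ± 1.49 and 11.1% ± 3.32. miR-18a-5p held 0.36% ± 0.18 in control, 1.44% ± 0.63 in TAA and 0.32% ± 0.08 in recovery. Against the sum of the other members over all 9 libraries, the SD of the log2 ratio was smallest for miR-20a-5p (0.28) and largest for miR-18a-5p (1.13).

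**Figure D4:**
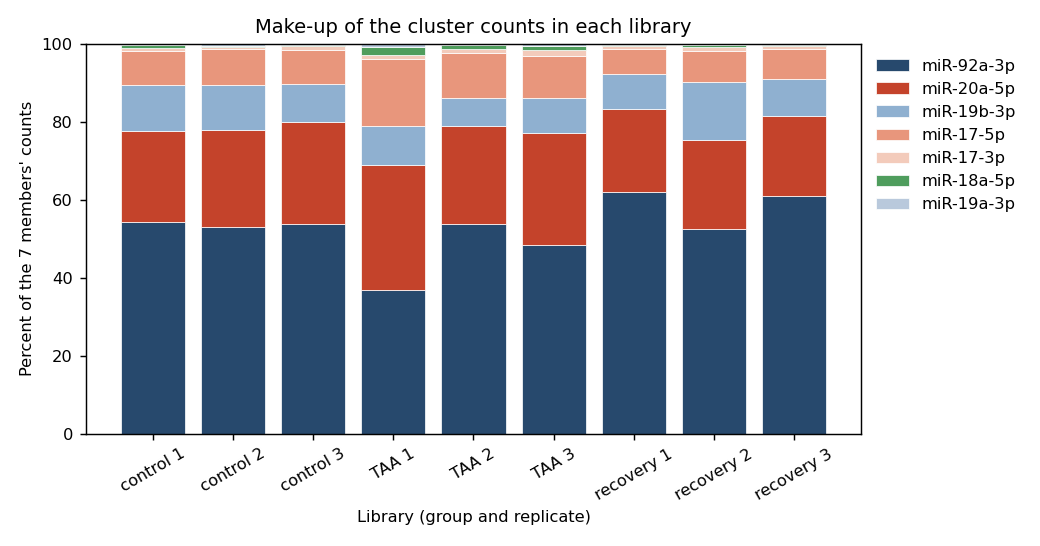
Share of each member in the summed counts of the 7 members (vertical axis, percent) in each of the 9 libraries. miR-92a-3p made up 36.8% of the bar in TAA replicate 1, its lowest share, and 61.9% in recovery replicate 1, its highest.

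The other arms of the hairpins were scarce. All 5 listed arms were in the table and 1 of them, mmu-miR-92a-1-5p, passed the filter on low counts in TAA vs control, where its log2 fold change was 0.38 ± 0.44 after TMM (edgeR FDR = 0.488) and 1.49 ± 0.42 on library totals (edgeR FDR = 0.0141). mmu-miR-18a-3p had 1, 2 and 0 counts in control, 21, 11 and 3 in TAA and 2, 3 and 1 in recovery. Its values thus leaned the same way as those of miR-18a-5p, with TAA replicate 1 again highest, at counts too low for the test. mmu-miR-20a-3p had at most 6 counts in any library, mmu-miR-19b-1-5p at most 4 and mmu-miR-19a-5p at most 1. Of the miR-17 hairpin, the 5p arm had 11.3 times the counts of the 3p arm in control, 14.8 times in TAA and 7.99 times in recovery, over the summed libraries of a group. Within single libraries the log2 ratio of these arms was 3.23, 4.299 and 3.19 in control and 4.45, 3.59 and 3.004 in TAA. In recovery it was 2.901, 2.88 and 3.21. All groups thus overlapped, and no shift between the arms is given.

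The cluster has 2 paralogues, and both share its seeds. The miR-106b-25 cluster lies in the gene Mcm7, which encodes a subunit of the replicative helicase, on chromosome 5, and its main arms are shown because they carry the seeds of 17/20a and 92a:
mmu-miR-106b-5p: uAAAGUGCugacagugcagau
mmu-miR-93-5p: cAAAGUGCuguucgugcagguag
mmu-miR-25-3p: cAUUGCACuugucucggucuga

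These 3 arms summed to 595 ± 18.3 TPM in control, 1426 ± 105 in TAA and 639 ± 76.7 in recovery (SD, n = 3), and the 7 members of miR-17-92 to 369.99 ± 8.20, 799 ± 238 and 367 ± 26.5. The log2 ratio of miR-17-92 to miR-106b-25 was -0.73, -0.69 and -0.64 in control, -0.54, -0.89 and -1.19 in TAA and -0.54, -0.84 and -1.004 in recovery, and the 3 groups overlapped (exact permutation test over 3 groups, adjusted p = 0.625 over 2 ratios, n = 3 each). In TAA vs control after TMM the log2 fold changes of the 6 miR-106b-25 rows ran from 0.11 ± 0.12 for mmu-miR-25-3p to 0.999 ± 0.59 for mmu-miR-25-5p. There 0 of 6 rows were called, against 25% of all rows called higher. mmu-miR-106b-5p (0.75 ± 0.19, edgeR FDR = 0.0106) and mmu-miR-106b-3p (0.55 ± 0.18, edgeR FDR = 0.0327) were below the FDR threshold but short of 2-fold. On library totals 6 of 6 rows passed as higher, against 57.4% of all rows, with log2 fold changes from 1.23 ± 0.12 for mmu-miR-25-3p to 2.11 ± 0.57 for mmu-miR-25-5p. In recovery vs TAA 0 of 6 rows were called after TMM, against 14.5% of rows called lower. There mmu-miR-106b-5p (-0.76 ± 0.16, edgeR FDR = 0.00876) and mmu-miR-106b-3p (-0.79 ± 0.22, edgeR FDR = 0.0241) were again short of 2-fold. On library totals 6 of 6 passed as lower, against 46.1% of rows.

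Of the miR-106a-363 cluster on chromosome X, only the rows that miR-17-92 does not share could be followed. 6 of its 10 listed rows were in the table, and the rows of its own main arms summed to between 8 and 112 counts a library. Its row mmu-miR-363-3p had 35, 11 and 35 counts in control, 95, 7 and 13 in TAA and 2, 1 and 13 in recovery. It was the 1 row of this cluster that passed the filter, and it was lower in recovery than in control (log2 fold change -2.64 ± 0.69 after TMM, edgeR FDR = 0.0260, and -2.46 ± 0.69 on library totals). In that comparison 11.3% of all rows were called after TMM and 12.5% on library totals, in either direction. The log2 ratio of miR-17-92 to these main arms was 7.10 ± 0.79 in control, 7.93 ± 1.07 in TAA and 8.49 ± 0.63 in recovery (exact permutation test over 3 groups, adjusted p = 0.414, n = 3 each).

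Counting all rows of the table with a given seed, miR-17-5p and miR-20a-5p made up 25.5% ± 1.13 of the counts with the 17/20a seed in control, 27.2% ± 6.92 in TAA and 21.4% ± 1.93 in recovery (SD, n = 3), the rest being mostly mmu-miR-93-5p. miR-92a-3p made up 44.7% ± 1.17, 38.2% ± 4.15 and 45.6% ± 6.67 of the counts with its seed, which mmu-miR-25-3p shares. The rare mmu-miR-92b-3p, also with this seed, had 2 to 8 counts in control, 13 to 98 in TAA and 3 to 7 in recovery. After TMM its log2 fold change was 1.97 ± 0.86 in TAA vs control (edgeR FDR = 0.0862). In recovery vs TAA it was called lower (-2.57 ± 0.83, edgeR FDR = 0.0415). In the same order mmu-miR-32-5p stood at 0.08 ± 0.40 and -0.61 ± 0.44 and was not called. No other matched row carried the 19a/19b seed. For 18a the other row was mmu-miR-18b-5p, with at most 2 counts in any library.

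The rows whose counts followed the cluster sum most closely over the 9 libraries, by the SD of the log2 ratio among 222 rows with a mean of at least 10 CPM, were mmu-miR-7a-5p (SD 0.17), mmu-miR-374b-5p (0.17), mmu-miR-374c-3p (0.17), mmu-miR-93-5p (0.19) and mmu-miR-27b-5p (0.23), beside a median SD of 0.52. The hairpins of the miR-374 pair overlap in the genome, so these rows are not separate. The sum is mostly miR-92a-3p and miR-20a-5p, and this likeness describes them more than miR-18a-5p.

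Marker miRNAs of the cells in liver moved between the same groups. The 3 hepatocyte markers (mmu-miR-122-5p, mmu-miR-192-5p and mmu-miR-194-5p) summed to 273164 to 298472 TPM in control, 163104 to 175763 in TAA and 242229 to 307701 in recovery, the largest of the marker sums. In TAA vs control 3 of 3 passed as lower after TMM, against 16.7% of rows, and 0 of 3 on library totals (edgeR), against 0.952%. The 5 biliary epithelial markers, of the miR-200 family, summed to 429.8 to 577 TPM in control, 5441 to 7927 in TAA and 949.9 to 1255 in recovery, and 5 of 5 passed as higher in TAA on both scales, against 25% of rows after TMM and 57.4% on library totals. The 5 leukocyte markers summed to 145 to 159.6, 435 to 518 and 112 to 194 TPM, with 2 of 5 higher after TMM and 5 of 5 on library totals. The 4 mesenchymal markers summed to 19057 to 24484, 28711 to 63241 and 16568 to 31138 TPM. Of these, 2 of 4 were higher after TMM and 3 of 4 on library totals. Most of the sum was mmu-miR-143-3p (61391 of 63241 TPM in TAA replicate 3). This row was not called after TMM (log2 fold change -0.022 ± 0.26) but passed on library totals. The 2 called after TMM were mmu-miR-199a-3p (1.66 ± 0.19) and mmu-miR-214-3p (2.003 ± 0.17), while mmu-miR-145a-5p stood at -0.25 ± 0.18. The 2 endothelial markers summed to 6576 to 6715, 8755 to 11204 and 6395 to 8094 TPM, and their log2 fold changes were of opposite sign on the 2 scales (-0.55 and -0.81 after TMM, 0.58 and 0.31 on library totals, for mmu-miR-126a-3p and mmu-miR-126a-5p), short of 2-fold on either. The 3 red cell markers summed to 583 to 1011, 337 to 749.8 and 252 to 552 TPM, with 1 of 3 lower after TMM and 0 of 3 on library totals (edgeR). The part of these cell types in the values of the cluster was not tested.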

How the data were processed

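The authors extracted liver RNA, prepared small RNA libraries with a NEBNext kit and mapped reads with Bowtie (version 1.3.0 per the labels) to the mouse genome mm10 and to miRBase 22.1. They deposited 1 table of 1140 miRNA rows with unnormalized read counts and a TPM, which equalled the count scaled by the column total within 4.96e-05. How reads matching more than 1 miRNA were counted was not given in the sources used here. No member row was within 2% of another row. RefSeq sequences matched 935 rows by name.

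Counts were fitted over the whole table with edgeR (version 4.0.16, R 4.3.3), 6 libraries a comparison: filterByExpr (minimum count 10), TMM, glmQLFit and glmQLFTest, Benjamini-Hochberg adjustment over all rows tested, and a call at 2-fold or more with an FDR below 0.05. CPM is scaled by TMM factors over 9 libraries. DESeq2 (1.42.0), limma (3.58.1) on log2(TPM + 1) and other scalings and filters were alternatives. The fits were tested on simulated data. Ratios used summed counts plus 0.5 and exact permutation tests. The members, the named miRNAs (members, other arms, paralogous clusters, rows with the same seeds, the 5 rows most alike) and marker lists were chosen with earlier results of these data known. The spread between mice includes counting error, which is largest for rare rows such as miR-19a-3p.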

Additional observations from a re-analysis of the deposited data

How the results depend on the processing

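Each comparison was repeated with other scalings, filters, tests and samples. The number of members called in TAA vs control was 1 after TMM, 5 on library totals, 4 with limma on log2(TPM + 1), 0 of the 4 members left by a mean of at least 10 CPM, and 0 to 1 without 1 library. In recovery vs TAA it was 2, and 1 with the size factors of DESeq2 or the 10 CPM filter, 5 on library totals or with limma, and 1 to 2 without 1 library. In recovery vs control it was 0, and 1 by FDR alone. Leaving out TAA replicate 1 on library totals, chosen after seeing the data, gave 3 and 5. Of the seed sums 1 was called in both comparisons with TAA, 2 on library totals, and 0 to 1 (TAA vs control) or 1 to 2 (recovery vs TAA) without 1 library. Of the seed ratios 5 passed, 0 without miR-19b-3p and miR-92a-3p, and 0 to 5 without 1 library. The cause of these changes was not tested, with 1 exception. The pair 17/20a to 18a, which holds neither miR-19b-3p nor miR-92a-3p, kept its difference (-1.69) and lost its call through the adjustment over 3 pairs.

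Reversals of sign were seen in values that did not pass the main test, apart from the ratio of 17/20a to 19a/19b (-0.15 without miR-19b-3p and miR-92a-3p). On library totals, with limma, and on library totals without TAA replicate 1, log2 fold changes in TAA vs control were 0.80, 0.71 and 0.39 for miR-19b-3p and 0.85, 0.83 and 0.79 for miR-92a-3p. In recovery vs TAA they were -0.81, -0.77 and -0.39 for miR-19b-3p and -0.75, -0.73 and -0.69 for miR-92a-3p, and with the 10 CPM filter -0.12 and -0.032. For miR-92a-3p in recovery vs control they were 0.10 and 0.10, and 0.0032 with the filter. The 19a/19b sum was 0.84 on library totals for TAA vs control and 0.018 with the size factors of DESeq2 for recovery vs TAA. With the mean of log2 counts, 19a/19b to 92a was 0.29 and the cluster to miR-106b-25 0.057, the latter 0.15 without the shared members. Without 1 library in turn, TAA vs control ran from -0.30 to 1.002 for miR-19a-3p, -0.17 to 0.46 for miR-20a-5p, -0.10 to 0.61 for the 17/20a sum and -0.36 to 0.18 for 19a/19b to 92a. Recovery vs TAA ran from -0.22 to 0.57 for miR-19b-3p, -0.016 to 0.29 for miR-92a-3p and -0.28 to 0.54 for the 19a/19b sum. Recovery vs control ran from -0.23 to 0.21 for miR-17-3p, -0.63 to 0.12 for miR-18a-5p and -0.19 to 0.029 for miR-92a-3p.

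With the replicate number as a block (mice with the same number were different animals, and their deviations correlated at -0.24 to 0.24), 1, 2 and 0 members were called, as without the block, and the 19a/19b sum in recovery vs TAA was 0.038.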
